A study of Homo sapiens with 4 samples.

Results

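The genes described here act at the G1/S transition and in DNA replication. The list names 48 genes, chosen by symbol with earlier results of these data known. Of these genes, 40 had a named probe set on the arrays. Where a gene had several probe sets the brightest on average was used, and all 40 were among the 12755 genes tested, of 14884 named in all. The 8 others, LIG1, RFC2, POLA1, TK1, CHAF1B, BRCA1, BRCA2 and FANCI, were not analysed here. The cells were MDA-MB-231Br (MDA-MB-231 in the sample titles), a line of the triple-negative breast cancer line MDA-MB-231. The 2 shYTHDF3 samples carried a lentiviral short hairpin RNA against YTHDF3, a cytoplasmic reader of N6-methyladenosine on RNA, and the 2 shControl samples carried a control hairpin in the same way. All 4 samples were selected with puromycin. The labels name neither separate cultures within a group nor the number of hairpins, so the p-values cover the spread among these 4 samples alone, and that spread may be technical.

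A cell commits to dividing late in G1, when cyclin D and cyclin E kinases phosphorylate the retinoblastoma protein and free E2F factors to switch on the replication genes. Origins are licensed when CDC6 and CDT1 load the MCM helicase, and they fire in S phase when CDC7 with DBF4, CDC45 and the GINS complex turn that helicase on. The fork then needs a sliding clamp, nucleases that finish the lagging strand, and a supply of deoxynucleotides. Because most of these transcripts peak around S phase, their level in a culture depends both on how many cells are in that phase and on how much RNA each cell holds. In bulk RNA these cannot be told apart.

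Values are log2 expression as the authors deposited them, and differences are shYTHDF3 minus shControl. Arrays of a group correlated at 0.992 in both groups over the tested genes, and arrays of different groups at 0.986 to 0.987. No probe set was named YTHDF3, so the level of the targeted gene was not analysed here and the labels have no check from it. Of 8 measured genes in a list for mesenchymal breast cancer lines, VIM, MSN, AXL and EGFR among them, all were above the low-value filter of 2.54. So were all 10 measured luminal and epithelial markers, and the filter does not tell these lists apart. The mesenchymal list also holds CD24, which such lines typically have at a low level. It stood at 5.17 in shYTHDF3 and 6.14 in shControl samples (difference -0.97, adjusted p = 0.0730 from limma). The sum of the 8 log2 values was 68.4 to 68.6 on shYTHDF3 arrays and 71.5 to 72.0 on shControl arrays. That sum counts CD24 like the others. Apart from CD24 and FN1, the differences ran from -0.47 (ZEB1) to 0.17 (CD44). FN1 was the 1 of the 8 that passed the test, as lower (difference -1.50, adjusted p = 0.0121 from limma). That call was lost under the replicate block (adjusted p = 0.109) and without shControl 1, shControl 2 or shYTHDF3 2 (0.300, 0.249 and 0.0572), with the difference between -1.70 and -1.29 throughout. Of the luminal and epithelial markers, ESR1 and PGR had means below the medians of the arrays, 3.20 to 3.22, while the other 8 lay above them, KRT18 highest at 8.96 in shYTHDF3 and 8.45 in shControl samples and EPCAM at 6.70 in both. The sum for 10 luminal and epithelial markers was 49.7 to 51.5 on shYTHDF3 arrays and 50.2 to 50.7 on shControl arrays. That for 7 leukocyte and stromal markers was 24.8 to 25.7 on shYTHDF3 arrays and 25.2 to 26.2 on shControl arrays. Much of the latter sum came from CD68, at 10.48 in shYTHDF3 and 10.66 in shControl samples. No other of the 7 had a group mean above 3.08. None of the 14 of these markers of other cell types that were tested passed. The part of the marker levels in the results below was not tested.

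Promoters of the listed genes carried E2F words more often than promoters in general, as a description with no test. The search covered 250 bases before to 50 after the first listed start of each gene (RefSeq, GRCh38.p14), on both strands, for 4 words of 8 letters: TTTCCCGC, TTTGGCGC, TTTCGCGC and TTTGCCGC. Of the 39 listed genes with an entry, 19 held at least 1 word (48.7%), against 908 of all 27305 promoters (3.33%). The word CCAAT, the letters of the CCAAT box, stood in 20 of the 39 (51.3%), against 35.7% of all promoters. With 5 letters it is shorter than the E2F words, and a match need not be a working box. The first 4 promoters below belong to the 4 genes of smallest p with an entry, and the last 3, of helicase genes, were added after their values and matches had been seen. Each runs 5′ to 3′ on the strand of the gene, and capitals mark the E2F words on either strand.
CCNE1, chr19:29811741-29812040, plus strand: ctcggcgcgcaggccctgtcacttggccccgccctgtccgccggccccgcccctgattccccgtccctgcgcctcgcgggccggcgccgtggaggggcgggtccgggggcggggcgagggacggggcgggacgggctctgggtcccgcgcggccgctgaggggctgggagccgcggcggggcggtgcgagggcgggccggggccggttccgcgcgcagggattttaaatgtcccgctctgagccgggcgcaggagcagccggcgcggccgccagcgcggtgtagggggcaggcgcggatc
FEN1, chr11:61792661-61792960, plus strand: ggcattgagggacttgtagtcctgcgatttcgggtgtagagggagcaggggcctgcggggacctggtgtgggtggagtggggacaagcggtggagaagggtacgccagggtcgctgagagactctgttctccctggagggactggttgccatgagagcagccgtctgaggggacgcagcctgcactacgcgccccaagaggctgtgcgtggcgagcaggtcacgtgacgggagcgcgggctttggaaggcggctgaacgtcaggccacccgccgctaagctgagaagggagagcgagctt
MCM10, chr10:13161308-13161607, plus strand: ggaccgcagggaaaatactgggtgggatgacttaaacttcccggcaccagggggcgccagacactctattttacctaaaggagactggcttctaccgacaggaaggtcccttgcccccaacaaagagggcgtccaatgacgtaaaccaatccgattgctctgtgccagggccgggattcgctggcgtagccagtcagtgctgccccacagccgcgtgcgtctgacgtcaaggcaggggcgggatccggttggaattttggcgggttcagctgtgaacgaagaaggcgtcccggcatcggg
EXO1, chr1:241847954-241848253, plus strand: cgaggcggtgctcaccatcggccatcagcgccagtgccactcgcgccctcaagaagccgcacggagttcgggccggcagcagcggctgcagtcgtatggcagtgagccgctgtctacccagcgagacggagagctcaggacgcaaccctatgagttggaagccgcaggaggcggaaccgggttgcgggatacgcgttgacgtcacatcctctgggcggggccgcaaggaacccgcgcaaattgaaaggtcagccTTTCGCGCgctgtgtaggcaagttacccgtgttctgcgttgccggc
MCM6, chr2:135876394-135876693, minus strand: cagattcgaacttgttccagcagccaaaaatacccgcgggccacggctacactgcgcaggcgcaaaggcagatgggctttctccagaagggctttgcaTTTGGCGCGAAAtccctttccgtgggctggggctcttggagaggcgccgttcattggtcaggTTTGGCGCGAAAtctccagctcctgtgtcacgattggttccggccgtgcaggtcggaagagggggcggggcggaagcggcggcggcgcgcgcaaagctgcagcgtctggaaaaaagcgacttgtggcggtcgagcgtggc
MCM7, chr7:100101348-100101647, minus strand: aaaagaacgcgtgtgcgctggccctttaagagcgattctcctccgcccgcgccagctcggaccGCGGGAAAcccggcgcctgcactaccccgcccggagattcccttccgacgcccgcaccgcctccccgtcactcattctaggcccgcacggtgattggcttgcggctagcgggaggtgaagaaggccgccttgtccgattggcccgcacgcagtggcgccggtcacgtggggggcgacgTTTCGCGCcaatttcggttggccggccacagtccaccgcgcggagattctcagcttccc
GINS2, chr16:85688905-85689204, minus strand: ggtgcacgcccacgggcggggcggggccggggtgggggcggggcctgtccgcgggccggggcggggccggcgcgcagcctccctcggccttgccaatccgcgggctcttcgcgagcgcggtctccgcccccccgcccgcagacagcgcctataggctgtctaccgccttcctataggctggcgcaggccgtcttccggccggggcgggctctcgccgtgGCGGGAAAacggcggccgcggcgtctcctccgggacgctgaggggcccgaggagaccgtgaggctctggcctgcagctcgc

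Among these, EXO1 and GINS2 held 1 word each and MCM7 held 2. MCM6 held 4 words in 2 stretches, because in both stretches a word on one strand overlaps a word on the other. CCNE1, FEN1 and MCM10 held none of the 4 words in this window, which says only that these letters are not there. The 17 tested genes with a word had a median difference of 0.34, and the 15 without one 0.19. The ranges were wide in both, from -0.15 to 0.70 with a word and from -0.59 to 0.93 without. For the word CCAAT the order was the reverse, with a median of 0.23 in the 19 tested genes with it and 0.30 in the 13 without. Neither split was tested.

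Taken one by one, no gene of the list passed the test, but most stood higher in the shYTHDF3 samples. Limma, which moderates the spread of each gene across all genes, gave 0 of 40 genes an adjusted p under 0.05, where 0.753% of all tested genes passed (0.0862% higher and 0.666% lower). Because the list was chosen with earlier results of these data known, the shares below describe it and do not test it. Of the 40, 37 had a positive difference (92.5%), against 50.8% of all tested genes. The median difference was 0.29, against 0.0040 over all tested genes. By limma's unadjusted p, at 0.05, 17 were higher (42.5%, background 6.24%) and 1 was lower (2.5%, background 8.48%). Both shYTHDF3 arrays lay above both shControl arrays for 31 genes (77.5%, background 22.6%) and below them for 1 (background 22.8%). The remaining 8 overlapped. With 2 arrays a group, the smallest 2-sided p of an exact permutation test is 0.333. Limma can give lower ones because it models the errors as normal, and moderating the spread may lower or raise the p of a gene.

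**Figure D1:**
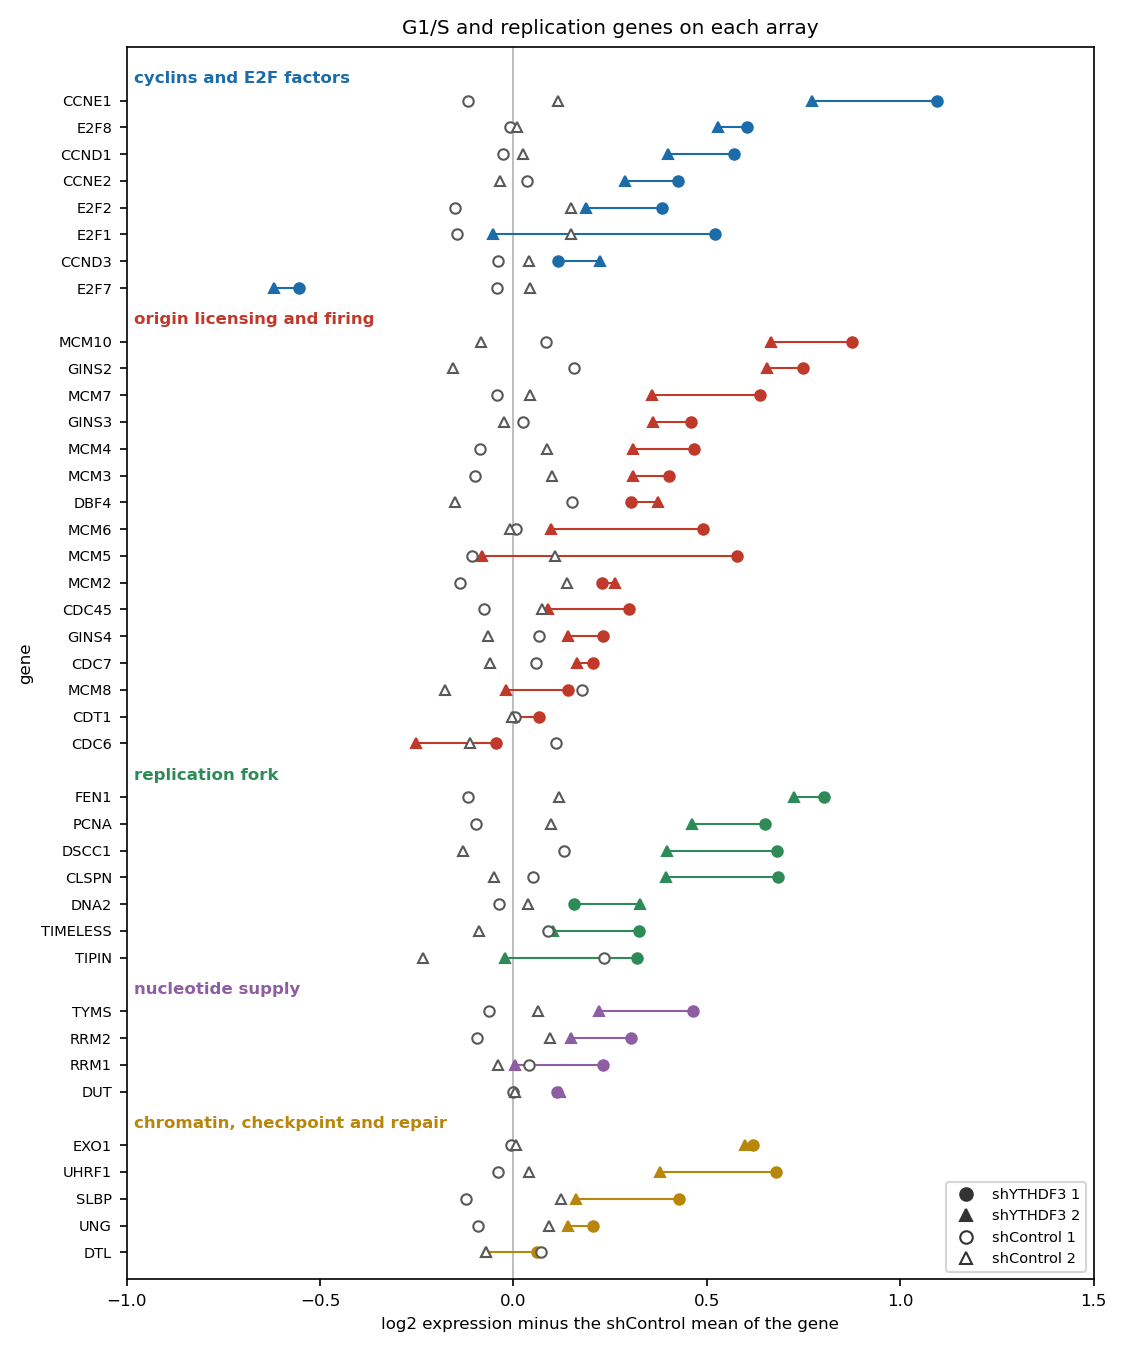
Log2 expression of the 40 tested genes on each array, with the shControl mean of the gene subtracted (x axis), by gene and subclass (y axis). Filled symbols are the 2 shYTHDF3 arrays, joined by a line, and open symbols the 2 shControl arrays. Filled symbols lie to the right for 31 genes, to the left for E2F7, and overlap the open ones for 8.

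**Figure D2:**
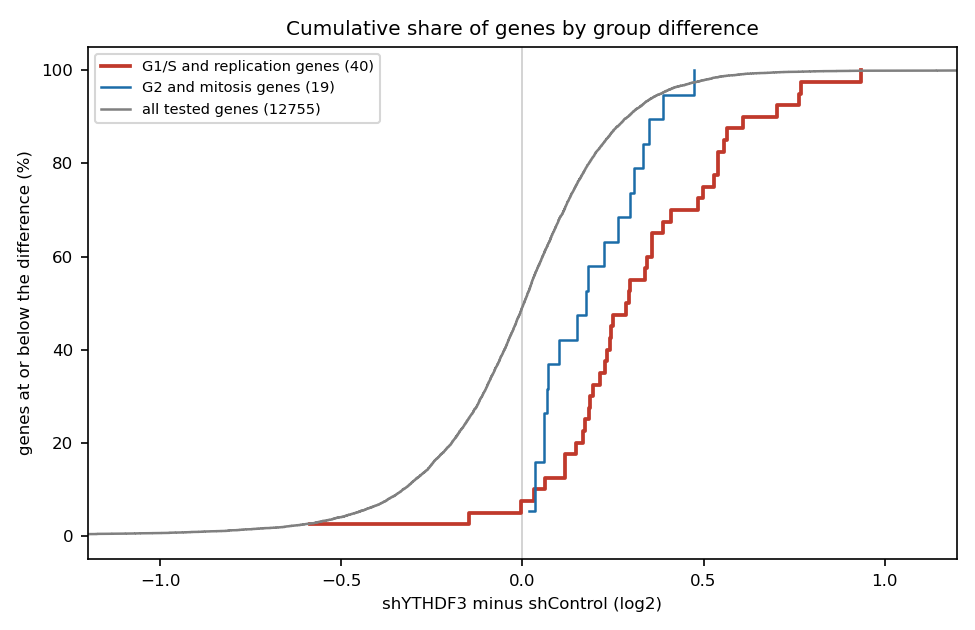
Cumulative percentage of genes (y axis) by log2 difference, shYTHDF3 minus shControl (x axis, drawn from -1.2 to 1.2), for the 40 G1/S and replication genes, 19 G2 and mitosis genes and all 12755 tested genes. The medians are 0.29, 0.18 and 0.0040.

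The call of 0 depended on the variance model and the filter. When limma's variance was allowed to follow intensity, 9 of the 40 passed, 8 higher (background 0.808%) and 1 lower (background 2.13%). The 8 were CCNE1, CCND1, E2F8, MCM10, GINS2, PCNA, FEN1 and EXO1, and the 1 lower was E2F7. With the filter raised to the median of all probe sets, CCNE1, FEN1 and MCM10 passed as higher, with limma's adjusted p at 0.0401, 0.0460 and 0.0473 (background 0.251% higher), and none passed as lower (background 1.36%).

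The cyclins and E2F factors held both the highest and the lowest difference of the list. CCNE1 encodes cyclin E1, which activates CDK2 at the G1/S transition. It stood at 6.86 and 6.54 in shYTHDF3 samples, against 5.65 and 5.88 in shControl samples. The difference was 0.93 (SE 0.16, 95% interval 0.55 to 1.32), or 1.91-fold, with an adjusted p of 0.0599 from limma, and it ranked 13 of 12755 from the highest. The groups did not overlap, and their gaps were 0.32 and 0.23. CCNE2, the second cyclin E, had 7.81 and 7.67 in shYTHDF3 samples and 7.42 and 7.35 in shControl samples, a difference of 0.36 (SE 0.13). CCND1, or cyclin D1, which activates CDK4 and CDK6 earlier in G1, had 9.28 and 9.11 in shYTHDF3 samples and 8.69 and 8.74 in shControl samples. Its difference was 0.49 (SE 0.13, adjusted p = 0.167 from limma), and its groups were also apart. CCND3, cyclin D3, differed by 0.17 (SE 0.13).

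The atypical E2F factors, E2F7 and E2F8, had differences of opposite sign. Both are repressors that bind E2F sites without a DP partner and restrain replication genes. E2F7 had 9.48 and 9.41 in shYTHDF3 samples, against 9.99 and 10.07 in shControl samples. Its difference was -0.59 (SE 0.13, 95% interval -0.88 to -0.29, adjusted p = 0.106 from limma), and it was the 1 gene of the list with both shYTHDF3 arrays below both shControl arrays. E2F8 had 7.52 and 7.44 in shYTHDF3 samples and 6.91 and 6.93 in shControl samples, a difference of 0.56 (SE 0.13, 95% interval 0.27 to 0.86, adjusted p = 0.115 from limma). In both genes the within-group gaps were at most 0.084. The activators E2F1 and E2F2 differed by 0.23 and 0.29, less than the largest gap within a group, and the shYTHDF3 arrays of E2F1 were 0.57 apart.

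The origin licensing and firing genes numbered 16, of which 15 were positive, with a median of 0.27. The 6 subunits of the replicative helicase, MCM2 to MCM7, were all positive, from 0.24 to 0.50, with a median of 0.33. MCM7 had 8.15 and 7.87 in shYTHDF3 samples and 7.47 and 7.55 in shControl samples, a difference of 0.50 (SE 0.15). MCM4 had 9.15 and 8.99 in shYTHDF3 samples and 8.60 and 8.77 in shControl samples, a difference of 0.39 (SE 0.14). Of the 6 subunits, 5 had both shYTHDF3 arrays above both shControl arrays (background 22.6%). The difference exceeded both within-group gaps for 3 of the 6 (background 16.6% as higher). The 95% intervals of MCM2, MCM5 and MCM6 spanned 0. The subunit with overlapping groups was MCM5, with 7.84 and 7.18 in shYTHDF3 samples and 7.15 and 7.37 in shControl samples. Its gap of 0.66 between the shYTHDF3 arrays was the largest within-group gap of the list, against a group difference of 0.25. MCM8, which works in recombination and is no part of this hexamer, differed by 0.06 (95% interval -0.32 to 0.44).

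Among the factors that turn the helicase on, MCM10, CDC45, CDC7, DBF4 and the listed GINS subunits all had positive differences. MCM10, which is needed to activate the loaded helicase, had 8.53 and 8.33 in shYTHDF3 samples and 7.74 and 7.57 in shControl samples. The difference was 0.77 (SE 0.14, adjusted p = 0.0711 from limma), or 1.71-fold. GINS2, a subunit of the 4-subunit GINS complex, had 7.05 and 6.96 in shYTHDF3 samples and 6.46 and 6.15 in shControl samples, a difference of 0.70 (SE 0.15, adjusted p = 0.104 from limma). The difference exceeded the larger gap, 0.31 between the control arrays. GINS3 had 7.32 and 7.22 in shYTHDF3 samples and 6.88 and 6.83 in shControl samples, a difference of 0.41 (SE 0.13). GINS4 differed by 0.19, and its second, dimmer probe set by 0.30. GINS1, not on the list, differed by 0.69 (SE 0.20), so all 4 subunits were positive. CDC7, the kinase that phosphorylates the helicase, and its activator DBF4 differed by 0.18 and 0.34, and CDC45 by 0.19.

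The loaders of the helicase, CDC6 and CDT1, had small differences whose intervals span 0, as do those of CDC7, DBF4, CDC45 and GINS4. CDC6 had 8.83 and 8.62 in shYTHDF3 samples, against 8.99 and 8.76 in shControl samples, which overlap, with a difference of -0.15 (95% interval -0.50 to 0.20). CDT1 differed by 0.03 (95% interval -0.26 to 0.33). DTL, the ubiquitin ligase adaptor that directs CDT1 to destruction in S phase, had 9.81 and 9.67 in shYTHDF3 samples and 9.82 and 9.67 in shControl samples, a difference of -0.0046 (95% interval -0.32 to 0.31).

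**Figure D3:**
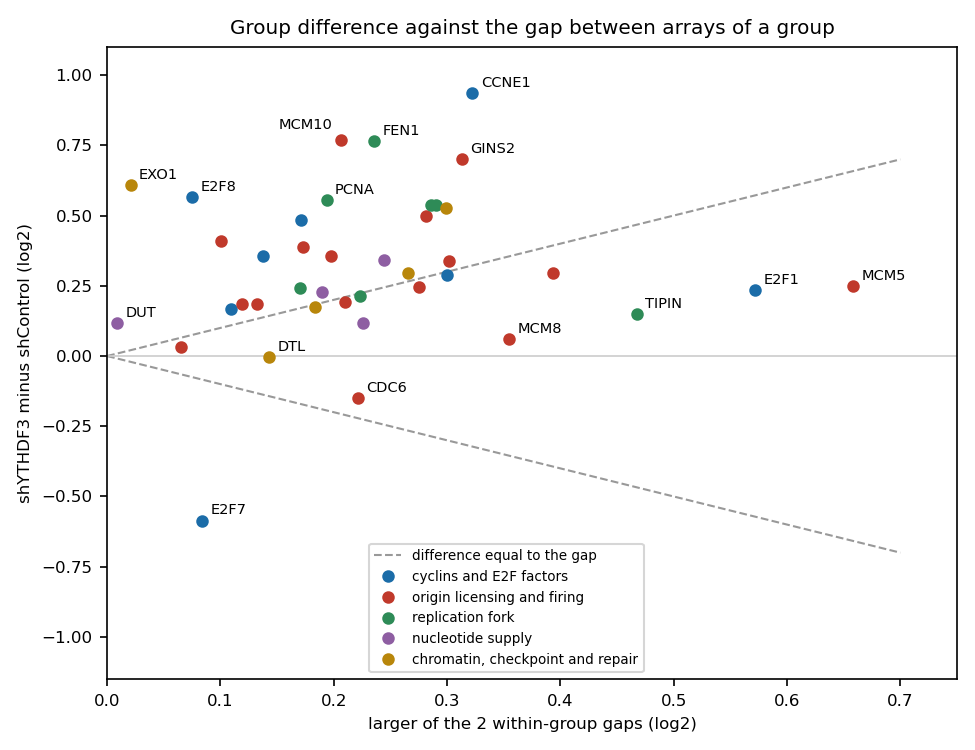
Log2 difference, shYTHDF3 minus shControl (y axis), against the larger of the gap between the shYTHDF3 arrays and the gap between the shControl arrays (x axis), 1 point per gene, coloured by subclass. Dashed lines mark a difference equal to the gap. Above the upper line lie 25 genes, below the lower line E2F7, and between the lines 14, with MCM5 and E2F1 farthest to the right.

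The replication fork genes had a median of 0.54, the highest of the 5 subclasses over all 4 arrays, and all 7 tested were positive. Without shControl 2 their median of 0.4084 lay just under those of the cyclins and E2F factors (0.4086) and of the chromatin, checkpoint and repair genes (0.4186). FEN1, the flap endonuclease that trims Okazaki fragments, had 7.84 and 7.76 in shYTHDF3 samples and 6.92 and 7.15 in shControl samples. The difference was 0.76 (SE 0.14, 95% interval 0.44 to 1.09, adjusted p = 0.0689 from limma), or 1.70-fold. PCNA, the sliding clamp that holds FEN1 and the polymerases on DNA, had 10.11 and 9.92 in shYTHDF3 samples and 9.36 and 9.55 in shControl samples, a difference of 0.56 (SE 0.14). Both genes had groups that did not overlap. DSCC1, part of a clamp loader used in sister chromatid cohesion, had 8.25 and 7.96 in shYTHDF3 samples and 7.70 and 7.43 in shControl samples, a difference of 0.54 (SE 0.16). CLSPN, or claspin, which carries the ATR signal to CHK1 at stalled forks, had 8.25 and 7.96 in shYTHDF3 samples and 7.62 and 7.51 in shControl samples, a difference of 0.54 (SE 0.15). The second probe set of CLSPN lay below the filter, with arrays of one group up to 1.29 apart, and is not read here. DNA2, a nuclease and helicase, had 7.30 and 7.47 in shYTHDF3 samples and 7.10 and 7.18 in shControl samples, a difference of 0.24 (SE 0.13). TIMELESS and TIPIN, which form the fork protection complex, differed by 0.21 and 0.15. For TIPIN this was less than both gaps, and the groups overlapped. For TIMELESS it was less than the gap of 0.223 between shYTHDF3 arrays but more than that of 0.180 between shControl arrays. The TIMELESS groups did not overlap.

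Nucleotide supply had a median of 0.17, the lowest of the 5 over all 4 arrays, with all 4 tested genes positive. TYMS, thymidylate synthase, had 9.54 and 9.29 in shYTHDF3 samples and 9.01 and 9.13 in shControl samples, a difference of 0.34 (SE 0.14, adjusted p = 0.333 from limma). RRM2, the S phase subunit of ribonucleotide reductase, had 8.96 and 8.80 in shYTHDF3 samples and 8.56 and 8.75 in shControl samples, a difference of 0.23 (SE 0.14). Its partner RRM1 had 9.29 and 9.06 in shYTHDF3 samples and 9.10 and 9.01 in shControl samples, which overlap. DUT, which destroys dUTP before it can enter DNA, had 4.69 and 4.70 in shYTHDF3 samples against 4.58 in both shControl samples. That difference of 0.12 exceeded gaps of at most 0.0088, yet its adjusted p was 0.727 from limma, since limma moderates so small a spread towards that of other genes.

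The chromatin, checkpoint and repair genes divided into large and small differences. EXO1, an exonuclease of mismatch repair and end resection, had 8.53 and 8.51 in shYTHDF3 samples and 7.90 and 7.92 in shControl samples. The difference was 0.61 (SE 0.12, adjusted p = 0.0935 from limma), with gaps of at most 0.021. UHRF1, which brings the maintenance methyltransferase to newly copied DNA, had 8.48 and 8.18 in shYTHDF3 samples and 7.76 and 7.84 in shControl samples, a difference of 0.53 (SE 0.15). SLBP, which binds the stem-loop of histone mRNA, had 8.37 and 8.10 in shYTHDF3 samples and 7.82 and 8.06 in shControl samples, a difference of 0.30 (SE 0.16). UNG, which cuts uracil out of DNA, had 8.75 and 8.69 in shYTHDF3 samples and 8.46 and 8.64 in shControl samples, a difference of 0.17 (SE 0.13). EXO1 and UHRF1 were set apart from their controls by more than both gaps, as was SLBP by a small margin, while UNG and DTL were not.

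The size of the differences depended on which shYTHDF3 array was read. The array shYTHDF3 1 exceeded shYTHDF3 2 for 35 of the 40 genes (87.5%), against 52.7% of all tested genes, with a median gap of 0.16. Between the control arrays, shControl 1 was the higher for 17 of the 40 (42.5%, and 50.6% of all tested genes), with a median gap of -0.04. The median difference of the list was 0.46 and 0.39 for shYTHDF3 1 against the 2 control arrays and 0.26 and 0.21 for shYTHDF3 2. Leaving out shYTHDF3 2 gave 0.41, and leaving out shYTHDF3 1 gave 0.22. The count of genes higher by limma's unadjusted p, at 0.05, was 19 without shYTHDF3 2 and 8 without shYTHDF3 1, in place of 17, and 12 without either control array in turn. Over all genes, in either direction, the same fits gave 1614, 1391, and 1370 and 1392, in place of 1878. Positive differences numbered 38 and 33 without these shYTHDF3 arrays. Over all genes the medians of the same pairs lay between -0.0065 and 0.0097. The replication fork had a median of at least 0.34 in each pair, while that of the chromatin, checkpoint and repair genes ran from 0.05 to 0.55. Group differences exceeded both within-group gaps for 25 genes as higher (62.5%, background 16.6%) and for 1 as lower (background 17.3%).

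**Figure D4:**
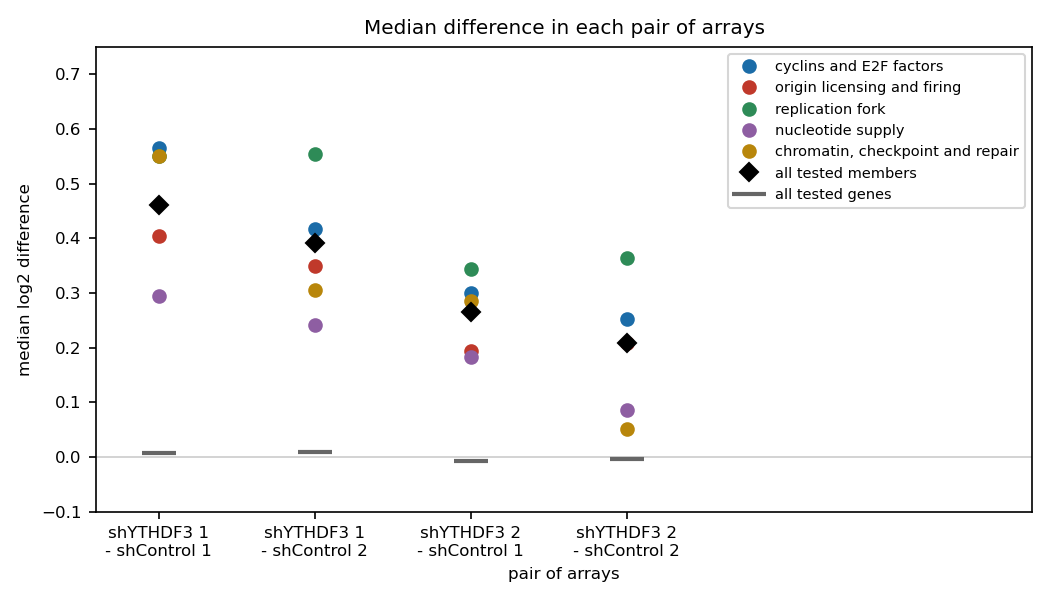
Median log2 difference (y axis) in each of the 4 pairs of a shYTHDF3 with a shControl array (x axis), for each subclass, all 40 tested members and all 12755 tested genes. The pairs share arrays and are not independent. The median over all members runs from 0.21 to 0.46, and both pairs with shYTHDF3 1 lie above both pairs with shYTHDF3 2.

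Related genes outside the list were positive for the most part, and no member of these lists passed limma's test either. Their medians were below the 0.29 of the list, except for the fork and polymerase genes, of which 1 was tested. When limma's variance followed intensity, CDC25A alone of the lists in this paragraph passed, as higher (adjusted p = 0.01735 from limma, background 0.808%). Of 12 other G1 kinases, inhibitors and pocket proteins (21 listed), 8 were positive, with a median of 0.09. CDC25A, the phosphatase that activates CDK2, had 7.38 and 7.63 in shYTHDF3 samples and 6.83 and 6.56 in shControl samples, a difference of 0.81 (SE 0.16, adjusted p = 0.0806 from limma). CDK2 itself, the partner of cyclin E, differed by 0.36, and TFDP1, the DP partner of E2F factors, by 0.32. The pocket proteins RB1, RBL1 and RBL2 were at -0.11, -0.03 and -0.27. Of 8 other origin factors (16 listed), 6 were positive, with a median of 0.18, led by GINS1 with TICRR at 0.32 and MCMBP at 0.24. Of 16 other nucleotide synthesis genes (23 listed), 14 were positive, with a median of 0.17, and SHMT1, a one-carbon enzyme that feeds thymidylate synthesis, differed by 0.52. Of the other fork and polymerase genes 1 of 23 was tested, WDHD1, at 0.31, and the 52 listed replication-dependent histone genes were not analysed here.

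The G2 and mitosis genes, most of which act later in the cycle, were positive for 19 of 19 tested (23 listed, background 50.8%). Their median was 0.18, against 0.29 for the G1/S and replication genes. Their highest was MYBL2, an E2F target that drives mitotic genes, at 0.47, followed by the proliferation marker MKI67 at 0.39 and cyclin A2, CCNA2, at 0.35. By limma's unadjusted p, at 0.05, 4 of these 19 were higher (background 6.24%). When limma's variance followed intensity, MYBL2 alone of the 19 passed after adjustment (adjusted p = 0.04995 from limma, background 0.808% higher). Both sets were read on the same 4 arrays, and the difference between them was not tested.

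**Figure D5:**
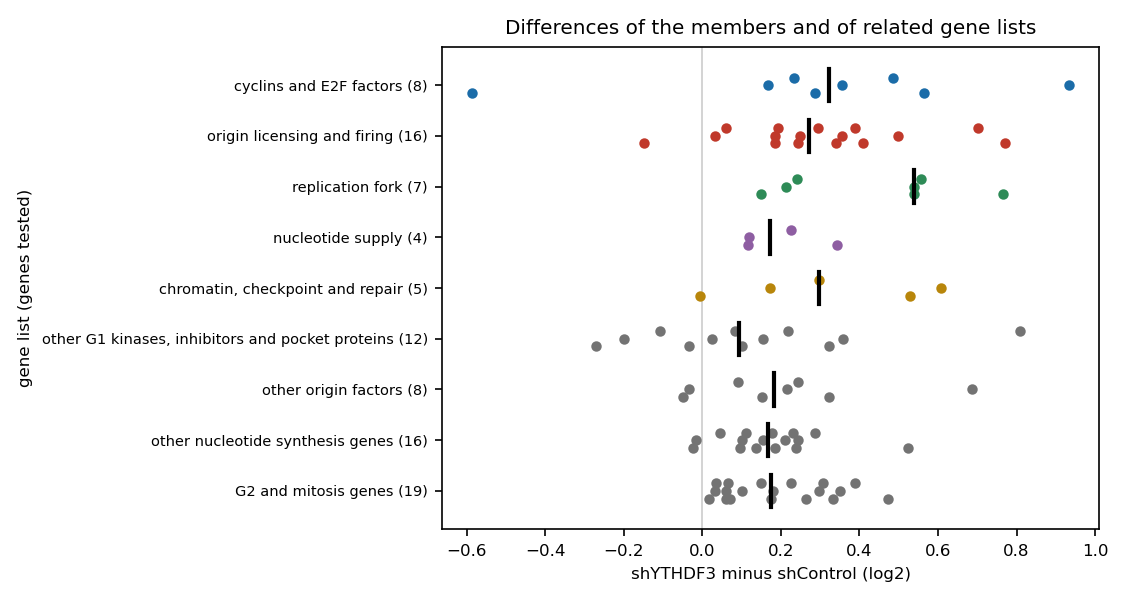
Log2 difference, shYTHDF3 minus shControl (x axis), of each tested gene in the 5 subclasses (coloured) and in 4 related lists (grey), with the median as a black bar and the number of genes tested in brackets (y axis). The medians run from 0.09 for the other G1 genes to 0.54 for the replication fork, and E2F7 lies farthest to the left at -0.59.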

How the data were processed

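RNA of 2 shYTHDF3 and 2 shControl samples was measured on Affymetrix arrays, and groups and numbers were taken from the sample titles. The deposited values are log2 expression per probe set, made by the authors with RMA, per the submitters' processing notes. The sources used here give neither its version nor its settings. RMA normalizes between arrays, so an array-wide shift in RNA amount is removed, and weak signals are compressed. The platform annotation gave 1 gene symbol to 16098 of 53617 probe sets and several to 0, and 37519 were unnamed here. All 16098 were matched to RefSeq by Entrez identifier. Genes entered the test if their highest-mean probe set was at or above 2.54, the 30th percentile over all probe sets. The test was 2-sided, by lmFit and eBayes of limma 3.58.1 (R 4.3.3) without covariates. P-values were adjusted by Benjamini-Hochberg over every gene in the test, at a threshold of 0.05. Residual degrees of freedom were 2 and prior ones 5.30, and the median SE was 0.142. The number of arrays limits the precision. The limma step was tested on simulated data with planted log2 differences of 1 and 2. All differences in the list were smaller in size than 1, so that simulation does not cover them.

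The members, subclasses and lists were chosen with earlier results of these data known. Array values are given for up to 5 members of smallest p per subclass, for members of opposite sign and for the largest within-group gap, and up to 3 genes of smallest p are named per related list. CCND3, E2F1, E2F2, MCM8, GINS4, CDC7, DBF4, CDC45, CDT1, TIMELESS, TIPIN and the pocket proteins are named for their roles, after their values were seen. Promoters of several starts were read at the first listed one. Alternatives covered the filter, probe set rule, normalization, variance model, replicate number and leaving out each array.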

Additional observations from a re-analysis of the deposited data

How the results depend on the processing

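The count of G1/S and replication genes past limma's threshold stayed at 0 in 12 of 14 alternatives, and was 3 with the filter at the median of all probe sets and 9 when the variance model followed intensity. Over all tested genes the count of 96 became 167 and 375 under these, 11 with the replicate number as a block, and 0 to 36 with 1 array left out. The counts of 0, without shControl replicate 1 or 2, came with 1370 and 1392 genes at limma's unadjusted 0.05. With an arm of 1 array, that array is assumed to vary like the other group. The titles give both groups the numbers 1 and 2, but nothing ties a number to a shared day, and deviations of same-numbered arrays correlated at 0.043. Under the replicate block 0 members passed. The median difference of the members ran from 0.222 to 0.4141 with 1 array left out and from 0.28 to 0.30 otherwise, and moved by more than the spread between arrays only without shYTHDF3 replicate 2 (0.4141). With 1 array left out the difference of DTL ran from -0.0763 to 0.067, positive without shControl replicate 1 (0.067) and shYTHDF3 replicate 2 (0.0625). That of MCM5 ran from -0.0797 without shYTHDF3 replicate 1 to 0.5787 without shYTHDF3 replicate 2. All other array-valued members kept their sign. Of the members whose array values are not given, E2F1, MCM8 and TIPIN turned negative without shYTHDF3 replicate 1. MCM8 and TIPIN also turned negative without shControl replicate 2. The cause of these changes was not tested. Dim probe sets near the filter limit what can be read for second probe sets of GINS4 and CLSPN.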
